A study of Mus musculus with 6 samples.

Results

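CREB, the cAMP response element binding protein, and its partners form one of the routes by which synaptic activity reaches the nucleus of a neuron. Here 10 genes of that route were followed through the primary visual cortex (V1) of mice with a closed eye: 3 transcription factors (Creb1, Crem and Atf1), 4 coactivators (Crtc1, Crtc2, Crtc3 and Crebbp) and 3 salt-inducible kinases (Sik1, Sik2 and Sik3). They were chosen by symbol, and each symbol matched 1 of the 52636 genes in the deposited count table. The mice were wild-type C57BL/6J animals at postnatal day 28 whose right eyelids had been sutured for 3 days of monocular deprivation. Tissue came from both hemispheres of each of 3 mice. Contralateral V1 is the left one, opposite the sutured eye, and ipsilateral V1 is the right one, on its side, so there were 3 contralateral and 3 ipsilateral libraries of total RNA. All mice had the suture, so no library comes from an undeprived animal, and the ipsilateral hemisphere of the same mouse is the only comparison. Contralateral V1 was the left one in every mouse, so an effect of eye closure and a difference between left and right cannot be told apart.

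In this pathway, calcium entry and cAMP activate kinases that phosphorylate CREB, which sits on a short DNA element in the promoters of its targets. Phosphorylated CREB recruits the acetyltransferase CBP, the product of Crebbp. The CRTC proteins are a separate switch: the salt-inducible kinases phosphorylate them and so hold them in the cytoplasm bound to 14-3-3 proteins, and calcineurin removes the phosphate so that they enter the nucleus and join CREB. Sik1 and Crem are themselves known CREB targets whose products restrain the pathway, Sik1 by acting on the CRTCs and Crem through short repressor forms that start from an internal promoter. In visual cortex, CREB is known for its part in the plasticity that follows closure of an eye.

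Gene reads numbered 17849253 to 32213500 per library, and back-splice reads 13428 to 26867. The 10 genes had 218 to 9692 reads each per library, where counting alone gives a relative SD of 6.77% at the lowest and 1.02% at the highest. A mitochondrial ribosomal RNA, mt-Rnr1, parted the libraries: it was low in contralateral 1, ipsilateral 1 and ipsilateral 3, at 15.02 to 34.6 CPM (counts scaled to library size), and high in the remaining 3, at 2346 to 5759 CPM. Results are therefore also given within the low and within the high libraries. Of 44 markers fixed for cortical neurons, other cells and neighbouring tissue, 40 were abundant enough to test and none was at 0 in all libraries. Summed cortical excitatory neuron markers ran from 1550 to 2150 CPM in contralateral and 1740 to 2278 CPM in ipsilateral V1. Of the 4 choroid plexus markers 3 were too low to test.

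The table of 1488 circular RNAs, recognised by reads across a back-splice junction, held none from these genes. The host gene column named them in 0 rows, and 0 circRNAs overlapped them by position. Since each listed circRNA had at least 1 read in every library, rarer circles of these genes were not analysed here.

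CREB binds the cAMP response element TGACGTCA (CRE), and more weakly its core TGACG, so the promoters were searched for both on both strands. RefSeq promoter windows (GRCm38.p6), from 250 bases before to 25 bases after the annotated start, were matched for 7 of the 10 genes: Creb1, Atf1, Crtc1, Crtc3, Crebbp, Sik2 and Sik3. Sik1, Crem and Crtc2 had no entry. The full element was in 0 of the 7 windows and in 1.73% of all 32851 windows. The core, which is also part of the full element, was in 3 of the 7, those of Sik2, Sik3 and Atf1, against 19.7% of all windows. The Sik2 and Sik3 windows are printed because these kinases carried the core more than once, and the Crtc1 and Crtc3 windows because these coactivators, substrates of the kinases, carried none. Each reads 5′ to 3′ on the strand of the gene, with the core in capitals. They lie at chr9:51009049-51009323 (minus strand) for Sik2, chr9:46012570-46012844 (plus strand) for Sik3, chr8:70439549-70439823 (minus strand) for Crtc1 and chr7:80688853-80689127 (minus strand) for Crtc3.
Sik2: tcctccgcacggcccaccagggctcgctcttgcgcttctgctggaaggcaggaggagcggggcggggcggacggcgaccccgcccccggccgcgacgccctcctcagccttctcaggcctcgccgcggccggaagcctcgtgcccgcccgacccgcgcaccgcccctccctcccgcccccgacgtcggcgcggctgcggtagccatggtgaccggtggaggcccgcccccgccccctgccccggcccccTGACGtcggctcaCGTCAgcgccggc
Sik3: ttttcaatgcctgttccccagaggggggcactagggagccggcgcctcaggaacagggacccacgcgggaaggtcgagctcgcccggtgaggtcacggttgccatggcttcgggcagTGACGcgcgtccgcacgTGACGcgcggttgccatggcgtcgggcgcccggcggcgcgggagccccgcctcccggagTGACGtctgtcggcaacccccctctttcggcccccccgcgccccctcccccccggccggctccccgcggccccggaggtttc
Crtc1: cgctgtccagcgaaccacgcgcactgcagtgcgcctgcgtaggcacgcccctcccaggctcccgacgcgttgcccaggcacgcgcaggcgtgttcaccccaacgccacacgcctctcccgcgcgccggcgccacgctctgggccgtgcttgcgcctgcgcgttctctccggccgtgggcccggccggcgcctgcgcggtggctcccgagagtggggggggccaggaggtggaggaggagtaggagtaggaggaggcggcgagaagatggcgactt
Crtc3: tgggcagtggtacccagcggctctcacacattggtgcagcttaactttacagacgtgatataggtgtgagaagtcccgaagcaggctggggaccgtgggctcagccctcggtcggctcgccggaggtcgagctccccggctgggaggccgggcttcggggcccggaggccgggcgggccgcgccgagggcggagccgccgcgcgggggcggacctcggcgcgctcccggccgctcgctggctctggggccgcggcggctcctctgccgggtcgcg

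In Sik2 the cores began 1 base before the start, on the strand of the gene, and 12 bases after it, on the opposite strand. In Sik3 they began 133, 116 and 57 bases before the start, all on the strand of the gene. The Atf1 window held a single core, 90 bases before the start. In Crtc1, Crtc3, Creb1 and Crebbp these letters were absent from this window, which says nothing of elements elsewhere. A match is a match of letters and was not tested for binding.

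Per exon length, the 10 genes spanned roughly an order of magnitude. RPKM, which divides CPM by exon length in kilobases, allows levels to be set side by side between genes. The length covers all annotated exons of a gene, which its expressed transcripts need not all contain, so order and shares are approximate. Crebbp was the most abundant, at 21.9 ± 1.80 RPKM in contralateral and 21.7 ± 1.35 RPKM in ipsilateral V1 (SD, n = 3 each), and stood at the 90.7th percentile of the 20473 genes tested. Its 6 values lay above those of every other gene of the group. Sik3 followed with 14.4 ± 1.12 RPKM in contralateral and 16.2 ± 1.85 RPKM in ipsilateral V1, and Crtc1 with 14.6 ± 2.22 RPKM in contralateral and 11.97 ± 3.02 RPKM in ipsilateral V1. These neighbours overlapped, Sik3 being the higher of the pair in 4 of 6 libraries. A gap separated them from Creb1, whose 6 libraries ran from 5.16 to 7.14 RPKM. Below it Atf1 (5.01 to 6.23 RPKM), Sik2 (4.56 to 7.36 RPKM), Sik1 (2.41 to 5.81 RPKM), Crtc2 (2.99 to 4.37 RPKM), Crem (2.08 to 3.13 RPKM) and Crtc3 (1.58 to 2.26 RPKM) formed a descending series in which each gene overlapped the next.

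**Figure D1:**
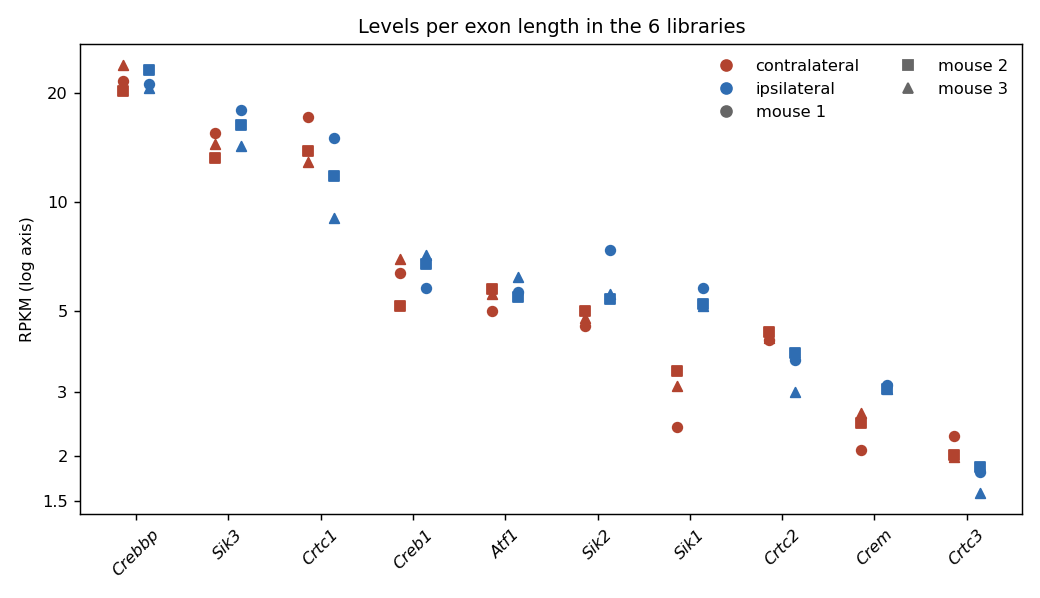
Levels per exon length (RPKM, log axis) of the 10 genes in each library, ordered by their mean, with contralateral libraries in red left of ipsilateral ones in blue and a symbol per mouse. Crebbp stands above all others, Sik3 and Crtc1 form a second tier, and the mean of Sik1 lies between those of Crtc2 and Crem in contralateral and between those of Atf1 and Crtc2 in ipsilateral V1.

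The design compares the V1 opposite the closed eye with the V1 on its side. Sik1 stood out: it was 1.82-fold lower in contralateral than in ipsilateral V1. Sik2 and Crem were lower and the 3 Crtc genes higher in contralateral V1 in every mouse, by smaller amounts that did not pass the test over all genes. Creb1, Atf1, Crebbp and Sik3 differed in direction between mice. In edgeR's quasi-likelihood test, with Benjamini-Hochberg adjustment over 20473 genes, 0 of the 10 genes passed an adjusted p under 0.05 (26 genes, 0.127% of all tested, did), and DESeq2 called 1, Sik1, against 0.624% of the 15228 genes to which it gave an adjusted p. At an unadjusted p under 0.05 stood 3 of the 10, against 6.15% of all genes tested, and with the mouse as a block 6 of the 10 (Crem, Sik1, Sik2 and the 3 Crtc genes), against 13.2%. With the mouse as a block, which uses the pairing of the hemispheres, 1 of the 10 passed, Sik1, against 0.894% of all genes tested. Sik1 was lower in contralateral V1, as were 0.698% of all genes tested in that fit, and 0 of the 10 were called higher, against 0.195% of all genes. The median log2 fold change (contralateral over ipsilateral) was -0.09 over the 10 genes and 0.03 over all genes tested.

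**Figure D2:**
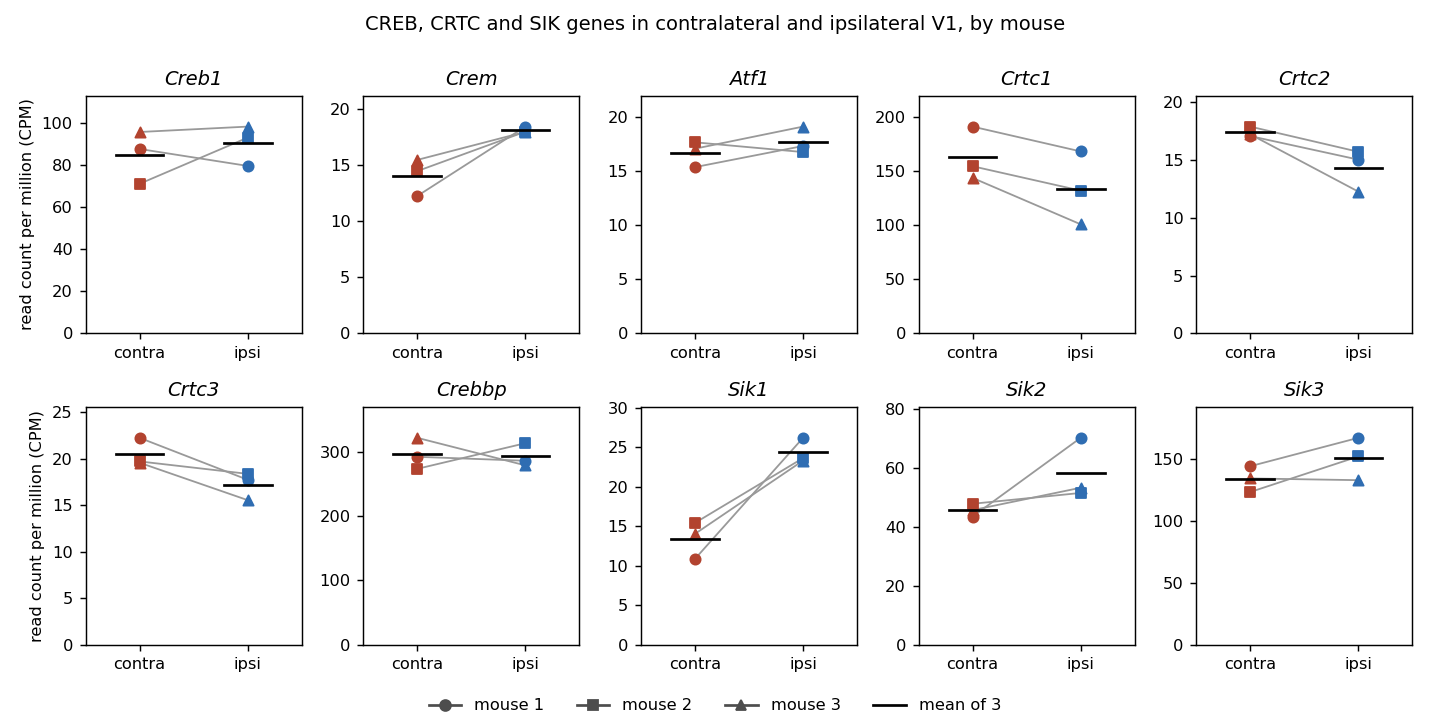
Levels (CPM) of the 10 genes in contralateral (left, red) and ipsilateral (right, blue) V1, with a line joining the hemispheres of each mouse and a black bar at each mean of 3. The lines climb to the right in all 3 mice for Sik1, Sik2 and Crem, fall to the right in all 3 for Crtc1, Crtc2 and Crtc3, and differ in direction between mice for Creb1, Atf1, Crebbp and Sik3.

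Sik1 (ENSMUSG00000024042, chromosome 17, 31844250 to 31855804, minus strand, GRCm38) encodes the inducible member of the salt-inducible kinases. It had 218, 288 and 304 reads in contralateral libraries 1 to 3, against 525, 730 and 569 reads in ipsilateral libraries 1 to 3. Scaled to library size these are 10.85, 15.4 and 14.03 CPM in contralateral V1, against 26.2, 23.7 and 23.3 CPM in ipsilateral V1. Every contralateral library lay below every ipsilateral one, and mouse 1 had both the lowest contralateral and the highest ipsilateral value. Means were 13.4 ± 2.35 CPM in contralateral and 24.4 ± 1.58 CPM in ipsilateral V1 (SD, n = 3 each), 44.9% lower in contralateral V1. The log2 fold change was -0.86 (SE 0.16, 95% interval -1.21 to -0.51), with adjusted p = 0.0955 in edgeR's quasi-likelihood test, where Sik1 ranked 35th by p. With the mouse as a block Sik1 was lower by 0.87 on the log2 scale (SE 0.13, 95% interval -1.15 to -0.58, adjusted p = 0.00233). The log2 ratios of the mice were -1.27, -0.62 and -0.73 for mice 1 to 3. Less Sik1 RNA per cell and fewer cells that express it cannot be told apart in dissected tissue.

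Interneuron markers also differed between the hemispheres. The summed level of Gad1, Gad2, Pvalb, Sst, Vip and Slc32a1 was 279 to 337 CPM in contralateral and 413 to 490 CPM in ipsilateral V1, and none of the 6 was at 0. Without the mouse 0 of the 6 passed as lower, against 0.127% of all genes tested. With the mouse as a block 3 of 6 passed as lower, against 0.698%. The part of interneurons in the values of Sik1 was not tested. Summed levels of the other 8 marker lists overlapped between the hemispheres. Within the low mt-Rnr1 libraries the log2 fold change of Sik1 was -1.20 (SE 0.33) and within the high ones -0.69 (SE 0.24), where 1 hemisphere has a single library that is assumed to vary like the others.

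**Figure D3:**
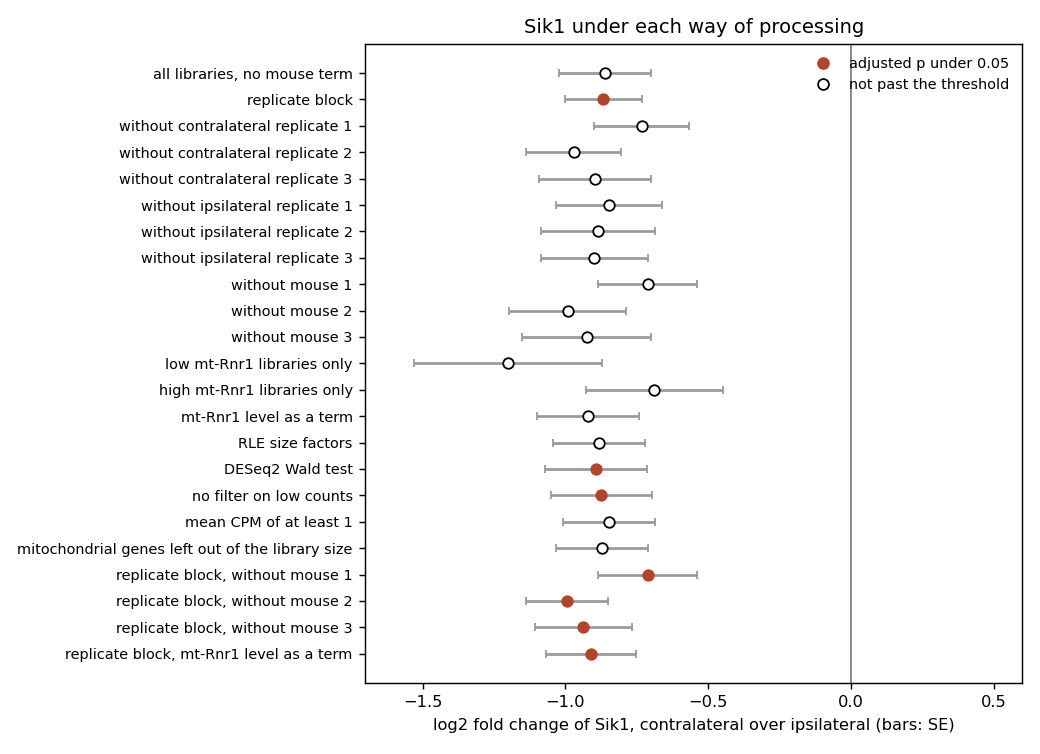
Log2 fold change of Sik1 (contralateral over ipsilateral, bars give the SE) with all libraries and under 22 other ways of processing, filled where adjusted p is under 0.05. All values lie between -1.20 and -0.69, and Sik1 passed in each of the 5 fits with the mouse as a block, with DESeq2 and without a filter on low counts. These fits share libraries and are not separate tests. Block fits without a mouse or with an mt-Rnr1 term leave little to estimate the spread of a gene from.

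Sik2 (ENSMUSG00000037112, chromosome 9, 50892801 to 51009073, minus strand), a kinase of the same family known in neurons as a brake on Crtc1, had 43.5, 47.8 and 45.6 CPM in contralateral libraries 1 to 3, against 70.2, 51.5 and 53.2 CPM in ipsilateral libraries 1 to 3. The groups did not overlap, but ipsilateral library 1 stood well above the rest. The log2 fold change was -0.35 (SE 0.14, 95% interval -0.66 to -0.05), with adjusted p = 0.764 without and 0.187 with the mouse as a block, and it was -0.24 without ipsilateral library 1. The log2 ratio was -0.69 in mouse 1 and -0.11 and -0.22 in mice 2 and 3. Exons of Sik2 share 1429 bases, 15% of their length, with Ppp2r1b on the opposite strand, which had 18.0 ± 1.81 CPM in contralateral and 21.2 ± 2.19 CPM in ipsilateral V1 (adjusted p = 0.832). The strand setting of the counts is not given in the sources used here, so reads in the shared stretch could belong to either gene.

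Sik3 (ENSMUSG00000034135, chromosome 9, 46012820 to 46224194, plus strand), the most abundant of the 3 kinases per length, ranged from 123.5 to 144 CPM in contralateral and from 133 to 167 CPM in ipsilateral V1. The groups overlapped, with a log2 fold change of -0.17 (95% interval -0.44 to 0.10, adjusted p = 0.860), and of -0.26 without ipsilateral library 3. The makeup of the kinase RNA pool is given by the share of each gene. Sik1 made up 10.7, 15.8 and 13.9% of the summed RPKM of the 3 kinases in contralateral libraries 1 to 3, against 18.7, 19.4 and 20.7% in ipsilateral libraries 1 to 3. Sik3 made up 64.9 ± 3.96% in contralateral and 58.5 ± 1.87% in ipsilateral V1, and Sik2 21.6 ± 1.41% in contralateral and 22 ± 1.82% in ipsilateral V1. These shares are a description and were not tested.

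Among the coactivators, the 3 Crtc genes shared a direction opposite to that of Sik1. Crtc1 (ENSMUSG00000003575, chromosome 8, 70382355 to 70439579, minus strand), the predominant neuronal CRTC, had 191, 155 and 144 CPM in contralateral libraries 1 to 3, against 168, 132 and 101 CPM in ipsilateral libraries 1 to 3. The groups overlapped because mouse 1 was high and mouse 3 low in both hemispheres, yet within each mouse the contralateral value was the higher. The log2 fold change was 0.29 (SE 0.18, 95% interval -0.10 to 0.67, adjusted p = 0.830), and 0.31 (SE 0.099, 95% interval 0.099 to 0.52, adjusted p = 0.181) with the mouse as a block. It was 0.11 without ipsilateral library 3, 0.15 without contralateral library 1 and 0.45 without ipsilateral library 1.

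Crtc2 (ENSMUSG00000027936, chromosome 3, 90254163 to 90264125, plus strand), best known for driving glucose production in liver, had 17.1, 17.9 and 17.2 CPM in contralateral libraries 1 to 3, against 15.03, 15.7 and 12.3 CPM in ipsilateral libraries 1 to 3. Crtc3 (ENSMUSG00000030527, chromosome 7, 80586627 to 80688877, minus strand), the least abundant of the 10 genes per length, had 22.3, 19.7 and 19.6 CPM in contralateral libraries 1 to 3, against 17.7, 18.4 and 15.5 CPM in ipsilateral libraries 1 to 3. For both genes the 3 contralateral values lay above the 3 ipsilateral ones, and ipsilateral library 3 was the lowest. Neither passed: the log2 fold change of Crtc2 was 0.28 (SE 0.15, adjusted p = 0.826 without and 0.344 with the mouse as a block) and that of Crtc3 was 0.25 (SE 0.14, adjusted p = 0.826 and 0.367). Without ipsilateral library 3 the value of Crtc2 was 0.17.

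Of the 10 genes, 3 were higher in contralateral V1 in all mice, against 19.2% of all genes tested, and 3 were lower in all mice, against 17.3%. Groups that do not overlap were seen for 2 of the 10 with the contralateral libraries above (6.70% of all genes) and for 3 of the 10 with them below (6.29%). Within the low and the high mt-Rnr1 libraries the log2 fold change was -0.58 and -0.27 for Crem, -0.52 and -0.14 for Sik2, 0.50 and 0.17 for Crtc1, 0.31 and 0.16 for Crtc2 and 0.41 and 0.09 for Crtc3, with SEs of 0.24 to 0.33. Each kept its sign within both sets. For Crem, Sik2, Crtc2 and Crtc3 the groups did not overlap, so a comparison within part of the libraries could hardly give another sign. In the low and the high libraries Creb1 stood at -0.03 and -0.16 and Sik3 at -0.07 and -0.24. Atf1 (-0.26 and 0.05) and Crebbp (0.04 and -0.08) changed sign between the sets. These 10 genes were chosen with earlier results of these data known, and no test over the group was made.

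Crebbp (ENSMUSG00000022521, chromosome 16, 4081328 to 4213997, minus strand), whose product CBP acetylates histones at CREB-bound promoters, had the smallest log2 fold change of the 10 genes. It had 293, 274 and 322 CPM in contralateral libraries 1 to 3, against 287, 314 and 279 CPM in ipsilateral libraries 1 to 3. The highest contralateral and ipsilateral values came from different mice and the groups overlapped fully. The log2 fold change was 0.02 (SE 0.12, 95% interval -0.25 to 0.28, adjusted p = 0.990), and it lay between -0.05 and 0.07 when 1 library was left out.

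Crem (ENSMUSG00000063889, chromosome 18, 3266048 to 3337748, minus strand) was the only one of the 3 factors whose groups did not overlap. It had 12.2, 14.5 and 15.5 CPM in contralateral libraries 1 to 3, against 18.4, 18.0 and 18.0 CPM in ipsilateral libraries 1 to 3. The ipsilateral values were nearly equal and the contralateral ones lay 22.4% lower on average. The log2 fold change was -0.37 (SE 0.15, 95% interval -0.69 to -0.04), with adjusted p = 0.776 without and 0.209 with the mouse as a block. The annotation gives Crem 39 transcripts, and a count per gene cannot separate its activator and repressor forms. Exons of Crem share 472 bases, 8.01% of their length, with Gm6225 on the opposite strand, which had 22 to 42 reads in contralateral and 18 to 34 reads in ipsilateral libraries, and the same limit on strand holds there.

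Creb1 (ENSMUSG00000025958, chromosome 1, 64532645 to 64604548, plus strand), the founding factor of the family, had 87.5, 71.0 and 95.6 CPM in contralateral libraries 1 to 3, against 79.5, 92.9 and 98.1 CPM in ipsilateral libraries 1 to 3. Mouse 1 was higher and mice 2 and 3 lower on the contralateral side, for a log2 fold change of -0.09 (SE 0.14, 95% interval -0.39 to 0.21, adjusted p = 0.934). Its direction turned without contralateral library 2 (0.02), and without ipsilateral library 1 the value was -0.21. Atf1 (ENSMUSG00000023027, chromosome 15, 100227819 to 100261244, plus strand), a close relative that pairs with CREB, ranged from 15.3 to 17.6 CPM in contralateral and from 16.7 to 19.1 CPM in ipsilateral V1, with a log2 fold change of -0.09 (SE 0.14, 95% interval -0.40 to 0.23, adjusted p = 0.937). Leaving out 1 library gave -0.14 to -0.03 for Atf1. For Creb1, Atf1 and Crebbp the intervals leave room for changes of at most 0.40 on the log2 scale in either direction. Creb1 and Atf1 made up 43.9 ± 4.67% and 39.0 ± 3.53% of the summed RPKM of the 3 factors in contralateral V1 and 42.5 ± 2.46% and 37.5 ± 1.55% in ipsilateral V1.

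**Figure D4:**
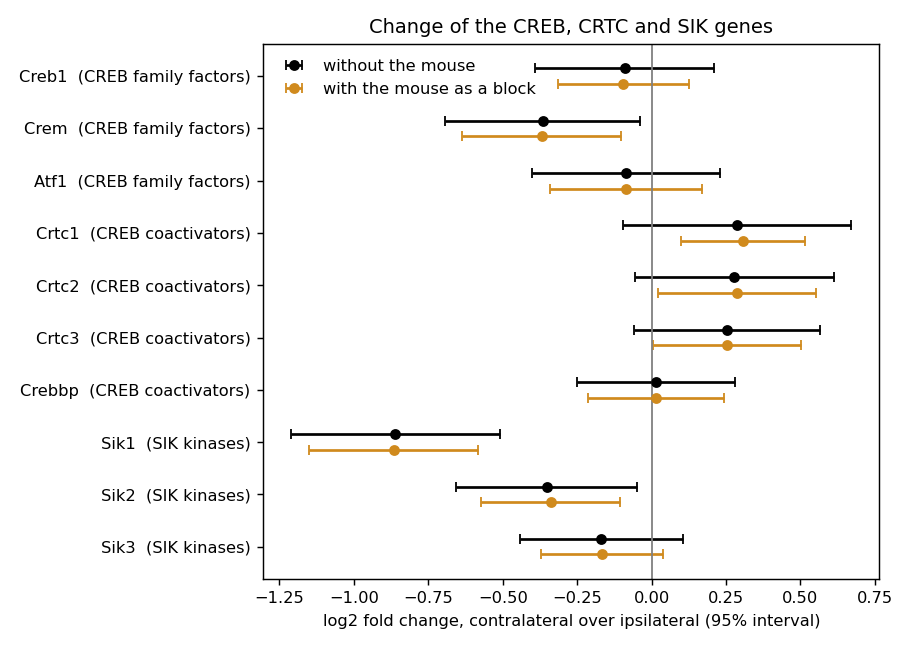
Log2 fold change of each gene (contralateral over ipsilateral) with its 95% interval, without the mouse (black) and with the mouse as a block (orange). The interval of Sik1 lies farthest from 0. Those of Crem and Sik2 lie below 0 in both fits, and those of Crtc1, Crtc2 and Crtc3 lie above 0 with the block alone, before adjustment over all genes.

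Genes whose pattern over the 6 libraries was most like that of Sik1 were sought among 11034 genes with a mean of at least 5 CPM. The highest Pearson correlations of log2 CPM were with Egr2 (0.994), Siae (0.994), Jcad (0.989), Dusp4 (0.982) and Drd1 (0.982). The 6 libraries come from 3 mice and fall into the hemispheres, so they are not independent points, and a correlation takes no account of the size of a difference. Egr2, an activity-induced zinc finger factor, had 3.48 ± 1.55 CPM in contralateral and 27.0 ± 5.31 CPM in ipsilateral V1. Dusp4, a nuclear MAP kinase phosphatase, had 6.04 ± 0.713 CPM in contralateral and 14.1 ± 2.05 CPM in ipsilateral V1 (adjusted p = 0.0233), whereas Siae, a sialic acid acetylesterase gene, had 21.98 ± 0.467 CPM in contralateral and 23.75 ± 0.0449 CPM in ipsilateral V1 (adjusted p = 0.900). Jcad, a gene of endothelial cell junctions, had 199 ± 16.4 CPM in contralateral and 277 ± 13.6 CPM in ipsilateral V1 and passed with the mouse as a block (adjusted p = 0.352 without and 0.0343 with it). Drd1, a dopamine receptor gene, had 7.85 ± 0.297 CPM in contralateral and 10.2 ± 0.251 CPM in ipsilateral V1 and did not pass in either fit (adjusted p = 0.784 and 0.275).

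Known CREB target genes had larger fold changes than most of the 10 genes. Of 24 known CREB target genes tested, 11 passed as lower in contralateral V1 and 0 as higher. With the mouse as a block 15 passed as lower and 0 as higher. Of all genes tested, 0.127% passed as lower without the block, and with it 0.698% passed as lower and 0.195% as higher. The list median was -0.93 (log2), against 0.03 over all genes tested. The 4 with the smallest p were Nr4a1, an orphan nuclear receptor (38.5 ± 6.63 CPM in contralateral and 126 ± 14.7 CPM in ipsilateral V1), the AP-1 subunit genes Junb (21.8 ± 1.82 CPM in contralateral and 52.7 ± 1.75 CPM in ipsilateral V1) and Fos (10.1 ± 3.54 CPM in contralateral and 41.1 ± 4.97 CPM in ipsilateral V1), and the neurotrophin gene Bdnf (19.8 ± 1.82 CPM in contralateral and 57.0 ± 13.5 CPM in ipsilateral V1). Many genes of this list were already known to be lower in these libraries when it was drawn up, so its count is no independent evidence of direction. The list shares Sst and Vip with the interneuron markers, whose summed level was also lower in contralateral V1. Without that pair, 14 of 22 passed as lower with the mouse as a block and the median was -1.02. The part of interneurons in the other genes was not tested.

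The 7 lists of genes upstream of and beside the pathway held 91 tested genes, of which 0 passed without the mouse, against 0.127% of all genes tested, and 2 passed with the mouse as a block, 2.2% against 0.894%. Of 11 kinases on the calcium and ERK side none passed without the mouse and 1 passed as lower with it. This was Rps6ka3, the RSK2 kinase that phosphorylates CREB (96.1 ± 11.2 CPM in contralateral and 130 ± 10.8 CPM in ipsilateral V1, adjusted p = 0.0257 with the block and 0.548 without it). The list median was -0.06. Of 13 SIK substrates and 14-3-3 genes (median -0.17) 1 passed as higher with the mouse as a block, although its groups overlapped. This was Hdac7, a class IIa histone deacetylase gene (40.3 ± 9.88 CPM in contralateral and 28.9 ± 5.39 CPM in ipsilateral V1, adjusted p = 0.0328 with the block and 0.761 without it). The other 5 lists had no gene past the threshold in either fit of edgeR's quasi-likelihood test.

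Among those 5 lists, 22 genes of cAMP and PKA signalling had a median of -0.10, with the PKA regulatory subunit genes Prkar2a (-0.40, adjusted p = 0.0515 with the block and 0.539 without it) and Prkar1b (-0.41, adjusted p = 0.160 and 0.748) at the smallest p. The 9 phosphatase and calcineurin regulator genes had a median of -0.23. Ppp2ca (-0.37, adjusted p = 0.143 with the block and 0.761 without it) and Rcan2 (-0.30, adjusted p = 0.209 and 0.797) had the smallest p. The 12 other bZIP factors of the CREB and ATF families had a median of -0.15. They were led by Atf4 (-0.40, adjusted p = 0.0737 with the block and 0.676 without it), the factor of the integrated stress response, and Atf2 (-0.29, adjusted p = 0.219 and 0.797). For 8 relatives and partners of CBP the median was -0.03. Cited2 (-0.46, adjusted p = 0.0645 with the block and 0.734 without it), which binds CBP, and Nono (-0.09, adjusted p = 0.744 and 0.923) had the smallest p. The median of 16 genes of the LKB1 complex, which activates the salt-inducible kinases, and of AMPK-related kinases was -0.03. Cab39 (-0.25, adjusted p = 0.260 with the block and 0.806 without it) and Mark1 (-0.21, adjusted p = 0.356 and 0.824) had the smallest p.

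**Figure D5:**
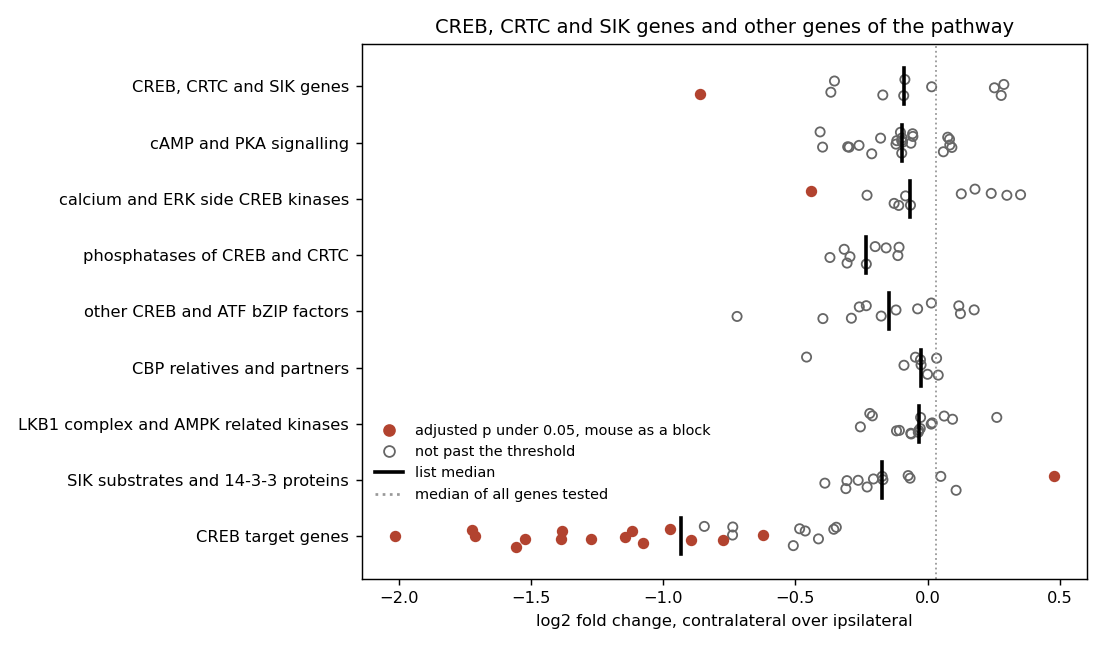
Log2 fold change (contralateral over ipsilateral) of the 10 genes and of 8 lists of other pathway genes, with a point per gene, a black bar at each list median and a dotted line at the median of all genes tested (0.03). Filled points passed with the mouse as a block: Sik1, Rps6ka3, Hdac7 and 15 CREB target genes.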

How the data were processed

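Both tables the authors deposited hold unnormalized counts with 1 column per library, of reads per Ensembl gene and of back-splice reads per circRNA. HISAT2, featureCounts, limma and DESeq2 are the tools and GRCm38 the build in the submitters' processing notes, with no roles or versions, and the extraction protocol names a stranded total RNA kit. Which strand setting, annotation release and circRNA caller were used is not given in the sources used here. GENCODE M21 (GRCm38) supplied symbols and positions and held 52489 of the 52636 IDs. Columns of other samples numbered 0.

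Genes were compared with edgeR's quasi-likelihood test (R 4.3.3, edgeR 4.0.16, TMM scaling, genes kept by filterByExpr at a count of 10 and a total of 15), Benjamini-Hochberg adjustment over 20473 genes and a threshold of 0.05. On simulated data the share of false calls was higher with the mouse as a block than without it. With the block it lay above the threshold of 0.05. DESeq2 1.42.0 was an alternative, and figures used matplotlib 3.10.9. Each SE was obtained by dividing the size of the log2 fold change by the root of the F statistic, and 95% intervals are not adjusted. CPM and RPKM used TMM scaling and the table's exon lengths. All 10 members passed the filter on low counts. The planned tests of circRNAs and of circRNA-to-host ratios had no row to run on.

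Same-numbered libraries come from the same mouse. Their deviations from the group means correlated at 0.508, 0.0979 and 0.221 for mice 1 to 3, against at most 0.193 between mice. Mouse 2 thus lay below the highest value between mice. Deviations from a group mean cancel out, so values within and between mice depend on each other, and the pairing is taken from the labels. The fit without the mouse was primary and the fit with the mouse as a block was set beside it. Correlations of log2 CPM between libraries lay between 0.982 and 0.992.

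The members, gene lists, rule for named genes and tests were chosen with earlier results of these data known. Named genes were all 10 members, up to 4 genes per list that passed in either fit or else the 2 with the smallest p, and the 5 genes most like a passing member. Which promoters to print was chosen after the values were seen. Counting errors cover sampling of reads only, since no molecular identifiers are named in the labels.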

Additional observations from a re-analysis of the deposited data

How the results depend on the processing

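Of the 10 genes, 0 passed with all libraries and no mouse term. The count was 1, Sik1, with the replicate block, with DESeq2, without a filter on low counts, and, as alternatives added after seeing the data, with the replicate block without mouse 1, 2 or 3 and with the replicate block and a term for the mt-Rnr1 level. Over all 22 alternatives the log2 fold change of Sik1 ranged from -1.20 to -0.69 and its adjusted p from 2e-05 to 1.00, and it passed in 7. The alternatives share libraries and are not separate tests. The lowest adjusted p came from the replicate block without mouse 3. Block fits without a mouse or with the mt-Rnr1 term leave little to estimate the spread of a gene from, so their p leans on the spread of other genes. Leaving out 1 library gave 0 of the 10 genes each time, with Sik1 between -0.97 and -0.73 and its adjusted p from 0.115 to 0.319. Crem (-0.58 to -0.27), Sik2 (-0.52 to -0.14), Sik3 (-0.26 to -0.07), Crtc1 (0.11 to 0.50), Crtc2 (0.16 to 0.35) and Crtc3 (0.09 to 0.41) kept their sign in all 22 and passed in none. For Sik1, Crem, Sik2, Crtc2 and Crtc3 the groups did not overlap, so fits to fewer libraries could hardly turn the sign. Creb1 kept its sign in 19, Atf1 in 21 and Crebbp in 10 of 22.

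Over all genes, 26 passed. The count was 183 with the replicate block, 95 with DESeq2, 109 without a filter on low counts, 14 without mouse 3 and 0 without mouse 2, where 521 genes had an unadjusted p under 0.05. It ranged from 0 (without contralateral library 2, with 833 genes at an unadjusted p under 0.05) to 35 when 1 library was left out. With the replicate block it was 250, 174 and 269 without mouse 1, 2 and 3, and 355 with a term for the mt-Rnr1 level. The cause of these shifts was not tested. The mouse block changed the call of Sik1 among the 10 genes and no other. Alternatives planned for circRNAs and their ratios to the host were not run, since no circRNA of these genes was in the table.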
